A study of Mus musculus with 22 samples.

Results

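Interferon-gamma and cytotoxic T cell genes were followed across 3 kinds of CD4+ T cell recovered from scurfy mice. The set was named gene by gene and holds 10 of the 55011 genes in the table: Ifng, Il12rb1, Il12rb2, Stat4, Il18r1, Il18rap, Gzmb, Gzmk, Prf1 and Nkg7. All 10 passed the filter on low counts, which left 15462 genes for testing.

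Interferon-gamma is the signature cytokine of T helper 1 cells, and its gene Ifng is induced when IL-12 signals through STAT4, an effect that IL-18 amplifies through its own receptor. Cytotoxic lymphocytes store granzymes and the pore-forming protein perforin in secretory granules and release them onto target cells. Regulatory T cells (Treg) depend on the transcription factor FOXP3 and usually make little interferon-gamma, although activated Treg can express granzyme B.

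Promoters are shown for the 2 genes of the set that differed between groups by the main test, Ifng and Nkg7, and for Gzmb, the most abundant member, as a contrast. Each is the stretch from 250 bases before to 50 bases after the start site, from RefSeq on GRCm38.p6: chr10:118440796-118441095 on the plus strand for Ifng, chr7:43436888-43437187 on the plus strand for Nkg7 and chr14:56262285-56262584 on the minus strand for Gzmb. Capitals mark TTCNNNGAA, the palindromic letters that STAT proteins prefer, and TCACAC on either strand (GTGTGA on the other), a core of T-box sites such as those of T-bet and Eomes.
Ifng: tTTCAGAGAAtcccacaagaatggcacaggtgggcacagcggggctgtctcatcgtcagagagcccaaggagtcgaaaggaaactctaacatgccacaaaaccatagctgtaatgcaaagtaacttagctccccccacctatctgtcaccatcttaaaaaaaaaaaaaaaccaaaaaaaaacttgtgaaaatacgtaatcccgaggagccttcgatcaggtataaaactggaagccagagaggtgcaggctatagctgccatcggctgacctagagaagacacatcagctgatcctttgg
Nkg7: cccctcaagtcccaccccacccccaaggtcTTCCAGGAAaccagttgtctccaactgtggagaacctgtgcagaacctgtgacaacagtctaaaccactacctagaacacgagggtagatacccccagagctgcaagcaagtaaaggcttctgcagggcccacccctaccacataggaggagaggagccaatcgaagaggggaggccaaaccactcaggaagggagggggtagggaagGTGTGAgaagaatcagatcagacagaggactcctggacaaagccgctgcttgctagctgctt
Gzmb: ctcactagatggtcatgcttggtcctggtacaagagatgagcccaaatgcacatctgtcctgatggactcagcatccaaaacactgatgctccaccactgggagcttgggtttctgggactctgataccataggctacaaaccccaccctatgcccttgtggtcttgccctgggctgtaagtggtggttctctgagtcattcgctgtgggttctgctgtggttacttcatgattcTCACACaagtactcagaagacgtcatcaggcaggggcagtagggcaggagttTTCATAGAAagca
The STAT letters began at position -249 from the start site in Ifng, -220 in Nkg7 and 38 in Gzmb, and the T-box letters at -12 in Nkg7 and -15 in Gzmb, with no overlap between the motifs. Of the 9 members with a promoter in the reference table (Il12rb1 had no entry), 5 held the STAT letters in at least 1 promoter (Ifng, Nkg7, Gzmb, Il12rb2 and Il18r1), and 4 held the T-box letters (Nkg7, Gzmb, Gzmk and Il12rb2). Among all 32851 promoters of 300 bases in the table, 8.3% held the first and 14.5% the second. Counted the same way, per promoter, the members' matches were 5 of 12 and 4 of 12. A match describes the letters of the window and is not a measured binding site. The RefSeq start sites differ from the GENCODE gene bounds for Nkg7 and Gzmb. The whole Gzmb window (from 56262285) lies outside the GENCODE gene, which ends at 56262260. The GENCODE start of Nkg7 (43437073) lies upstream of the RefSeq one, so its T-box letters fall within the GENCODE gene.

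The scurfy mouse lacks functional Foxp3 and develops fatal autoimmunity. All recipients were scurfy mice, given cyclophosphamide at 50 mg/kg when 10 days old, then the cells on day 14 and human IL-2 at 1000 IU/g, each day for 5 days and weekly afterwards. In the FOXP3 group (5 codes), the injected cells were CD4+ T cells from lymph nodes of 10-day-old scurfy mice transfected with human FOXP3 and the surface reporter LNGFR. In the LNGFR group (3 codes), such cells carried an empty vector that encodes only LNGFR. For the WT Treg group (3 codes), the injected cells were CD4+CD25+ cells marked by CD45.1, for which the labels give no vector. The labels give C57BL/6 as strain and a scurfy genotype for every library, the WT Treg group included. Each library came from 1000 CD4+ cells sorted from lymph nodes on day 50 by LNGFR or CD45.1. The WT Treg group therefore differs from the other two in donor cells, vector and sort marker, which cannot be told apart. A code such as F1 names 2 libraries, which were summed. The labels do not say whether codes are separate mice, so p-values cover only the variation among codes, which may be technical.

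The 22 libraries held 332570 to 5453375 counts, with at least 2204508 in all but 3: both libraries of WT Treg code E2 and the second of LNGFR code G1. In those 3, a family of repeat-like gene models around Gm10800 took 58.7%, 49.9% and 29.1% of counts. Mouse Foxp3 ran from 162 to 313 counts per 1000000 (CPM) in FOXP3 codes, 42.7 to 143 in LNGFR codes and 704 to 1630 in WT Treg codes. Whether reads of the human FOXP3 vector fell in the mouse row was not tested. A list of 8 T cell genes (Cd3e, Cd4 and others) summed to between 2467 and 6536 CPM in every code, all 8 detected in each group. Of the 2 CD8 genes, Cd8a stayed at or below 5.26 CPM, while Cd8b1 was at 3.92 to 9.55 CPM in FOXP3 codes, 8.63 to 14.2 in LNGFR codes and 6.58, 33.8 and 24.9 in WT Treg codes E2, G4 and L1. Cd8b1 did not pass by edgeR, was called lower in FOXP3 than in WT Treg by DESeq2 and limma-voom, and higher in WT Treg than in LNGFR by limma-voom. Its part in the results was not tested. The list of 10 natural killer cell genes summed to 21.4 to 24.4 CPM in FOXP3 codes and 19.5 to 21.5 in LNGFR codes. In WT Treg codes it summed to 8.73 to 96.1 CPM, with the highest value in E2. There Ncr1 was at 29.0 CPM, in a weak code where 3 counts amount to 3.95 CPM. Over the WT Treg codes Klrb1f of that list reached 34.2 CPM, while Tyrobp and Fcer1g stayed at or below 4.53 and 4.26 CPM. The part of natural killer cells in the results was not tested. The list of 8 B cell genes was uneven: 138 to 5144 CPM in FOXP3 codes (highest in N3), 524 to 1544 in LNGFR codes (highest in G1) and 136 to 233 in WT Treg codes. The list of 6 plasma cell genes summed to 18.9 to 689 CPM in FOXP3 codes, 196 to 629 in LNGFR codes and 14.5 to 69.5 in WT Treg codes. The list of 8 myeloid genes summed to 145 to 240, 157 to 475 and 80.3 to 219 CPM in the same order of groups. Its gene Lyz2 reached 9.86, 4.03 and 55.4 CPM. By edgeR 0 of that list passed. Against LNGFR, DESeq2 called Lyz2 and limma-voom Csf1r higher in WT Treg. DESeq2 called Adgre1, and limma-voom Lyz2 and Csf1r, lower in FOXP3 than in WT Treg. The 3 gamma-delta T cell genes summed to at most 9.41 CPM. The part of both lists was not tested. In these bulk samples, fewer cells of a type and less RNA per cell cannot be told apart.

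Of the 10 genes, 2 differed in 1 comparison and none in the other two. In WT Treg against LNGFR, Ifng and Nkg7 fell (adjusted p 0.0162 and 0.0494, edgeR's quasi-likelihood test with Benjamini-Hochberg adjustment over all genes tested), where 1.30% of all genes passed. DESeq2 and limma-voom called the same 2 genes, and 5.73% and 5.61% of all genes. In FOXP3 against LNGFR, 0 of 10 passed by edgeR, 0 by DESeq2 and 0 by limma-voom, while 2 (Ifng and Prf1) had an unadjusted p under 0.05. By edgeR, 1595 of all 15462 genes tested reached that p there. Over all genes tested, 0.543% passed there by edgeR, 2.65% by DESeq2 and 6.78% by limma-voom. In FOXP3 against WT Treg, 0 of 10 passed by edgeR against 0.259% of all genes, and 4 (Ifng, Gzmb, Prf1 and Nkg7) had an unadjusted p under 0.05. That p was reached by 2547 of all 15462 genes tested by edgeR. DESeq2 called 3 genes higher in FOXP3 there (Ifng, Nkg7 and Prf1), and limma-voom called 3 (Il12rb2, Il18rap and Nkg7), so only Nkg7 was called by both. Those tools called 7.31% and 6.89% of all genes in that comparison. The median log2 fold change of the 10 genes against LNGFR was 0.22 in FOXP3 and -0.44 in WT Treg, beside -0.016 and 0.079 over all genes tested. In FOXP3 relative to WT Treg it was 0.86, beside 0.0058 over all genes. The 3 comparisons share their groups, so these medians are not independent of each other.

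**Figure D1:**
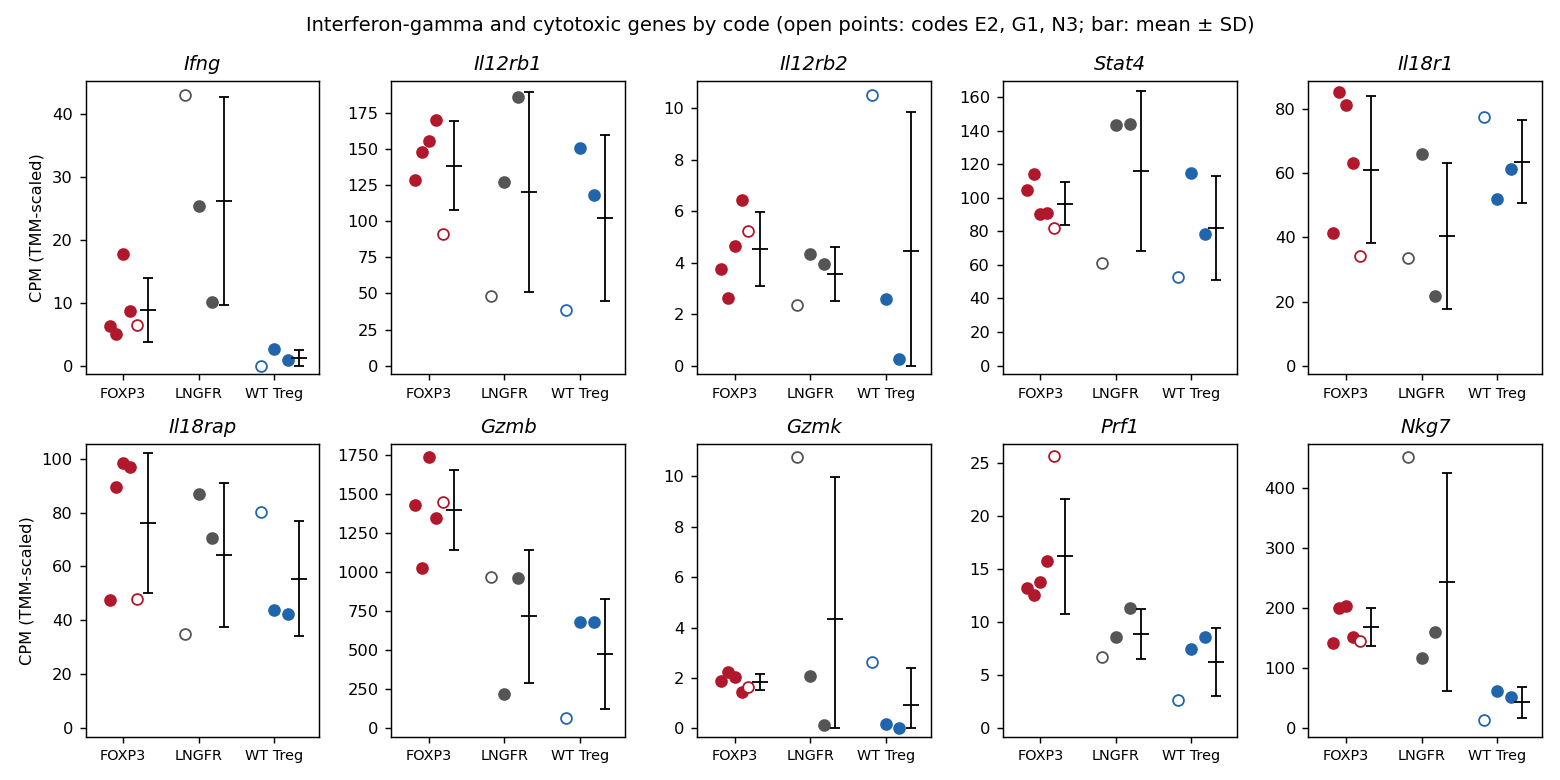
Level of each gene in every code, in CPM on a linear axis, for FOXP3 (5 codes), LNGFR (3) and WT Treg (3). Bars are mean ± SD with the lower end cut at 0, and open points are codes E2, G1 and N3. Ifng in the 3 WT Treg codes sits between 0 and 2.59 CPM, below all FOXP3 and LNGFR codes, and Gzmb in the 5 FOXP3 codes sits above all other codes.

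Ifng, which encodes interferon-gamma (chr10:118441046-118445892, plus strand, GRCm38), was at 43.0, 25.3 and 10.1 CPM in LNGFR codes G1, G2 and G3. It was at 6.22, 5.03, 17.7, 8.72 and 6.42 CPM in FOXP3 codes F1, F2, F5, N2 and N3. In WT Treg codes G4 and L1 it was at 2.59 and 0.932 CPM, and E2 gave 0 counts, which at its depth allows up to 3.95 CPM. The 3 WT Treg codes were thus lower than all others, while FOXP3 and LNGFR codes overlapped through F5 and G3. Ifng fell from 26.1 ± 16.5 CPM in LNGFR to 1.17 ± 1.31 in WT Treg (SD, n = 3 codes each), a log2 fold change of -4.07 ± 0.74 (SE; edgeR adjusted p 0.0162). The call was lost when code G2 (adjusted p 0.0746) or L1 (0.12) was left out, and when only these 2 groups were fitted (0.0715). FOXP3 codes averaged 8.81 ± 5.13 CPM (n = 5), a log2 fold change of -1.55 ± 0.52 relative to LNGFR (adjusted p 0.264) and 2.51 ± 0.68 relative to WT Treg (adjusted p 0.0965), neither past the threshold by edgeR. The second difference passed with DESeq2 (adjusted p 0.0122), without a filter on low counts (0.000165) and without code G4 (0.0282). All B cell list genes were lower in WT Treg than in LNGFR as well, 8 of 8 by fitted fold change and 0 of 8 past the threshold, and of 5 tested plasma cell genes 5 were lower, 0 past the threshold and 3 at an unadjusted p under 0.05 (DESeq2 called Mzb1). The part of either list in the Ifng and Nkg7 differences was not tested. In WT Treg against LNGFR, 2290 of all 15462 genes tested had an unadjusted p under 0.05 by edgeR. Without codes E2, G1 and N3, Ifng fell by 3.35 on the log2 scale from LNGFR to WT Treg (adjusted p 0.0255). That fit sets only G2 and G3 against G4 and L1, without the highest LNGFR and the lowest WT Treg code for Ifng. Counting could have mixed Ifng with Gm49751, whose exons overlap 336 bp of it on the same strand and whose row held 126 counts over all libraries, beside 414, 370 and 23 for Ifng in the FOXP3, LNGFR and WT Treg groups. How shared reads were assigned is not given, and the effect on Ifng was not tested.

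Levels of the IL-12 receptor genes and Stat4 overlapped between all groups. Il12rb1, the receptor chain shared with IL-23, was at 48.1, 127 and 186 CPM in LNGFR codes, 90.9 to 170 CPM in FOXP3 codes (median 148) and 38.2, 151 and 118 CPM in WT Treg codes E2, G4 and L1. The lowest values were those of codes E2, G1 and N3 within their groups, and the groups overlapped. Relative to LNGFR its log2 fold change was 0.20 ± 0.45 in FOXP3 and -0.22 ± 0.50 in WT Treg (SE; edgeR adjusted p 0.891 and 0.886), with 95% intervals of -0.77 to 1.17 and -1.30 to 0.87. Stat4, the transcription factor that IL-12 activates, was at 60.9, 143 and 144 CPM in LNGFR codes, 82.2 to 114 CPM in FOXP3 codes (median 90.9) and 52.6, 114 and 78.3 CPM in WT Treg codes. G1 and E2 were again the lowest of their groups. The log2 fold change for FOXP3 against LNGFR was -0.27 ± 0.32 (adjusted p 0.797). Without codes E2, G1 and N3 it was -0.53 and passed (adjusted p 0.0427), and the remaining FOXP3 codes were then all below G2 and G3. The exons of Gm28177 overlap 1033 bp of Stat4 on the same strand, and its row held 48 counts over all libraries. How shared reads were assigned is not given, and the effect on Stat4 was not tested. Il12rb2, the inducible chain that confers IL-12 responsiveness on T helper 1 cells, was at 2.61 to 6.43 CPM in FOXP3 codes, 2.35 to 4.32 in LNGFR codes and 10.5, 2.59 and 0.266 in WT Treg codes E2, G4 and L1. These rest on 306 counts in all, of which E2 gave 8. Its exons overlap 1519 bp of Serbp1 on the opposite strand, a gene at 276 to 417 CPM, and the strand setting of the counting is not given, so reads of the 2 genes could be mixed and Il12rb2 is uncertain. Its log2 fold change in FOXP3 relative to WT Treg was 0.36 ± 0.81 (SE; edgeR adjusted p 0.861), and it passed as higher with limma-voom (adjusted p 0.0357).

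Levels of the 2 chains of the IL-18 receptor also overlapped between all groups. Il18r1, the ligand-binding chain, was at 34.3 to 85.5 CPM in FOXP3 codes (median 63.2), 33.6, 65.9 and 21.8 CPM in LNGFR codes and 77.7, 52.1 and 61.4 CPM in WT Treg codes. Its log2 fold change against LNGFR was 0.60 ± 0.39 in FOXP3 and 0.64 ± 0.44 in WT Treg (SE; edgeR adjusted p 0.657 and 0.505). Il18rap, the accessory chain, was at 47.4 to 98.5 CPM in FOXP3 codes (median 89.6), 35.0, 87.1 and 70.5 CPM in LNGFR codes and 80.3, 43.8 and 42.5 CPM in WT Treg codes. FOXP3 codes F1 and N3 were low for both chains, and G1 was the lowest LNGFR code for Il18rap. Its log2 fold change for FOXP3 against WT Treg was 0.49 ± 0.39 (adjusted p 0.573), with a 95% interval of -0.34 to 1.32. It passed by limma-voom (0.86, adjusted p 0.0457), which gives codes with a noisy profile less weight.

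**Figure D2:**
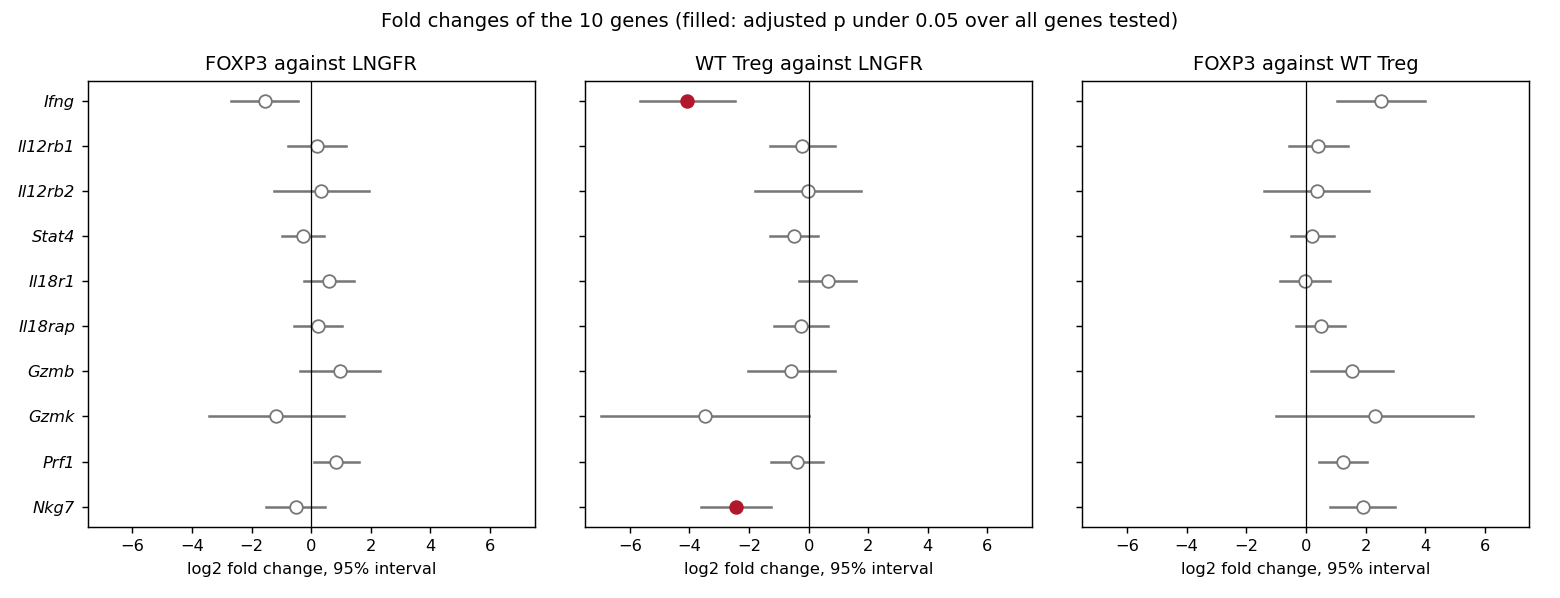
Log2 fold changes of the 10 genes in the 3 comparisons with their 95% intervals from the edgeR fit. Filled points passed an adjusted p of 0.05: Ifng (-4.07) and Nkg7 (-2.43) in WT Treg against LNGFR. The intervals of the receptor genes all include 0.

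Of the granule genes, Nkg7 fell in WT Treg and Gzmb was the most abundant. Nkg7 encodes a granule membrane protein of cytotoxic lymphocytes (chr7:43437073-43438249, plus strand, GRCm38). It was at 452, 118 and 160 CPM in LNGFR codes G1, G2 and G3, at 142, 201, 204, 152 and 145 CPM in FOXP3 codes F1, F2, F5, N2 and N3, and at 14.5, 62.7 and 52.7 CPM in WT Treg codes E2, G4 and L1. All WT Treg codes were below all others, and FOXP3 and LNGFR codes overlapped. From LNGFR to WT Treg, Nkg7 fell by 2.43 ± 0.55 on the log2 scale (SE, n = 3 codes each, edgeR adjusted p 0.0494). That call lies at the threshold: it was lost in 10 of the 11 fits that leave out 1 code, with N3 the exception, and without G1 the value was -1.61 (adjusted p 0.114). The difference of FOXP3 to WT Treg was 1.91 ± 0.50 (adjusted p 0.0933), which passed without G1 (adjusted p 0.042), without G4 (0.038), with DESeq2 (0.00443) and with limma-voom (0.000418). The difference of FOXP3 to LNGFR was -0.53 ± 0.46 (adjusted p 0.726) and turned to 0.28 without G1. Between FOXP3 and WT Treg, the B cell list genes were higher in FOXP3 in 8 of 8 cases by fitted fold change. By edgeR, 0 of 8 passed the threshold and 8 had an unadjusted p under 0.05, beside 2547 of all 15462 genes tested. DESeq2 called Ms4a1 of that list higher in FOXP3. The part of these B cell genes in the Nkg7 difference was not tested. Without codes E2, G1 and N3 Nkg7 fell by 1.27 from LNGFR to WT Treg (adjusted p 0.00284) and was 1.59 higher in FOXP3 than in WT Treg (adjusted p 0.000636). That fit leaves only G2 and G3 for LNGFR and G4 and L1 for WT Treg. It drops the highest LNGFR and the lowest WT Treg code for Nkg7, so the spread is smaller.

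Gzmb encodes granzyme B, the protease that triggers apoptosis in target cells (chr14:56258838-56262260, minus strand, GRCm38). It was at 1424, 1027, 1736, 1346 and 1443 CPM in FOXP3 codes F1, F2, F5, N2 and N3. LNGFR codes G1, G2 and G3 held 966, 221 and 958 CPM, and WT Treg codes E2, G4 and L1 held 68.4, 682 and 678 CPM. Every FOXP3 code was above every other code, although F2 and G1 were close. G2 was low in both of its libraries (227 and 248 CPM before scaling) and E2 in both of its own (38.9 and 52.7 CPM). Group means were 1395 ± 253 CPM in FOXP3 (SD, n = 5), 715 ± 428 in LNGFR and 476 ± 353 in WT Treg (n = 3 each). The log2 fold change of FOXP3 was 0.97 ± 0.63 relative to LNGFR (SE; edgeR adjusted p 0.654), with a 95% interval of -0.39 to 2.32, and 1.54 ± 0.64 relative to WT Treg (adjusted p 0.242). Neither passed. That of WT Treg relative to LNGFR was -0.58 ± 0.68 (adjusted p 0.729) and turned to 0.21 without codes E2, G1 and N3.

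Prf1 encodes perforin, through which granzymes reach the target cell. It was at 13.3, 12.6, 13.8, 15.8 and 25.7 CPM in FOXP3 codes F1, F2, F5, N2 and N3, at 6.72, 8.64 and 11.4 CPM in LNGFR codes and at 2.63, 7.44 and 8.66 CPM in WT Treg codes. As with Gzmb, every FOXP3 code was above every other code. The log2 fold change was 0.85 ± 0.36 against LNGFR (SE; edgeR adjusted p 0.429) and 1.23 ± 0.37 against WT Treg (adjusted p 0.118). Gzmk, a granzyme of memory and effector T cells, was scarce. LNGFR codes held 10.8, 2.08 and 0.12 CPM, where 32 of 46 counts came from G1, and FOXP3 codes held 1.45 to 2.23 CPM. WT Treg codes held 3 counts in all, 2 of them in E2. The ratio of pooled CPM to WT Treg was 8.95 for FOXP3 (95% exact interval 2.96 to 44.2) and 12.6 for LNGFR (4.06 to 63.4), intervals that cover counting error only. The groups overlapped, since E2, at 2.63 CPM from 2 counts, lay above every FOXP3 code, and the mean of WT Treg codes was 0.931 CPM against 1.85 in FOXP3. The test over codes gave a log2 fold change of -3.47 ± 1.62 in WT Treg relative to LNGFR and 2.31 ± 1.53 in FOXP3 relative to WT Treg (SE; edgeR adjusted p 0.339 and 0.498).

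Codes that do not overlap between groups were thus seen for Gzmb and Prf1 in FOXP3 against LNGFR (2 of 10 genes, beside 9.02% of all genes tested), for Ifng and Nkg7 in WT Treg against LNGFR (2 of 10, beside 16.6%), and for Ifng, Gzmb, Prf1 and Nkg7 in FOXP3 against WT Treg (4 of 10, beside 12.4%). The first count is near its background once Gzmb is lost: FOXP3 and LNGFR codes overlapped for Gzmb with RLE or upper-quartile scaling, with a filter of at least 10 CPM in 3 codes, and without the 3 weak libraries, which left Prf1 alone. The second count was 4 without G1 or without G2 and 5 without codes E2, G1 and N3. The last count was 7 of 10 without code E2, with Il12rb2, Il18rap and Gzmk added, where only 2 WT Treg codes have to lie apart. With fewer codes the share of all genes that do not overlap was not computed.

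**Figure D3:**
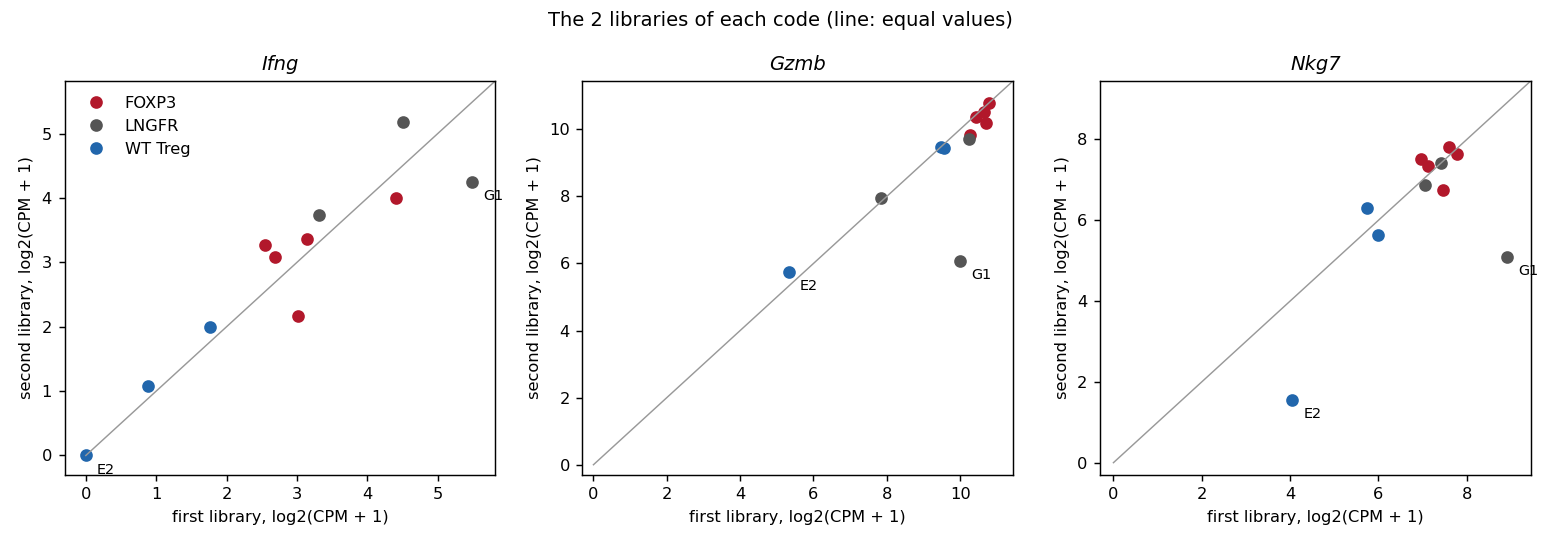
The 2 libraries of each code against each other for Ifng, Gzmb and Nkg7, as log2(CPM + 1) scaled by each library's total. The line marks equal values. Most codes lie near it, and G1 lies far below it for Gzmb and Nkg7, and E2 for Nkg7.

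For Gzmb and Nkg7 the 2 libraries of a code differed most in G1, and for Nkg7 also in E2. In the first G1 library Gzmb was at 1027 CPM, Nkg7 at 480 and Ifng at 43.9, and in the second they were at 66.2, 33.1 and 18.0 CPM, from 22, 11 and 6 counts. For Gzmb the larger value was 15.5 times the smaller in G1 and at most 1.44 times in the other codes. The G1 sums rest on the first library, which held 2776945 of the 3109515 counts. Nkg7 in E2 rests on 10 and 1 counts. Scarcer genes varied between libraries of other codes too: Gzmk in F2 gave 22 and 2 counts, Il12rb2 in N3 gave 5 and 43, and Prf1 in G4 gave 33 and 13. Ifng in F2 gave 35 and 19 counts, 2.03 times apart per library total.

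**Figure D4:**
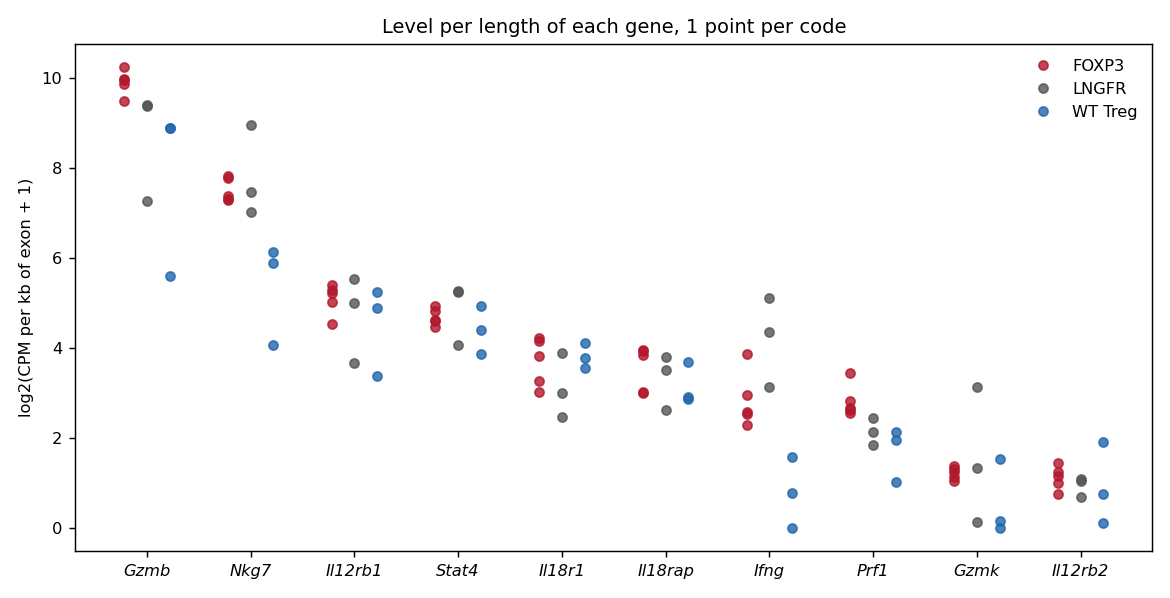
Level of each gene per kb of exon, as log2(CPM per kb + 1), with 1 point per code and genes in order of their mean. Gzmb and Nkg7 stand above the other 8 genes in every code but E2.

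Per kb of exon, Gzmb led the set in all 3 groups, at 972 ± 176 CPM per kb in FOXP3, 498 ± 298 in LNGFR and 331 ± 246 in WT Treg (SD over codes). Among 15151 tested genes with a known length it ranked 22 to 44 in FOXP3 codes, 50 to 284 in LNGFR codes and 69 to 438 in WT Treg codes. Nkg7 came next, at 185 ± 33.8, 266 ± 199 and 47.4 ± 27.9 CPM per kb. Il12rb1 (33.8 ± 7.45, 29.3 ± 16.9 and 24.9 ± 14.1 in the same order of groups) and Stat4 (24.9 ± 3.29, 30.0 ± 12.3 and 21.1 ± 8.03) followed and did not differ beyond their spread. Il18r1 and Il18rap lay between 8.22 and 13.2 CPM per kb on average in every group, also within each other's spread. Ifng was at 6.81 ± 3.96, 20.2 ± 12.7 and 0.906 ± 1.01 CPM per kb, so its place in the order changed with the group, and its rank ran from 1518 in G1 to 14392 in E2. Prf1 was at 6.28 ± 2.10, 3.45 ± 0.907 and 2.42 ± 1.23 CPM per kb, far below Gzmb in each group. Gzmk and Il12rb2 were the lowest in FOXP3 and LNGFR, at 0.934 to 3.11 CPM per kb on average. In WT Treg, Gzmk (0.671), Ifng (0.906) and Il12rb2 (1.18) were the lowest, within each other's spread.

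Other genes of these pathways were read from 8 lists of 74 genes, of which 61 were tested. By edgeR, 1 of 61 passed in FOXP3 against LNGFR (lower), 3 of 61 in WT Treg against LNGFR (all lower) and 1 of 61 in FOXP3 against WT Treg (higher), with medians of 0.024, -0.033 and 0.16. Over all genes tested the same test called 0.543%, 1.30% and 0.259%. DESeq2 called 3, 7 and 4 of the 61 (2.65%, 5.73% and 7.31% of all genes) and limma-voom 9, 10 and 7 (6.78%, 5.61% and 6.89%).

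**Figure D5:**
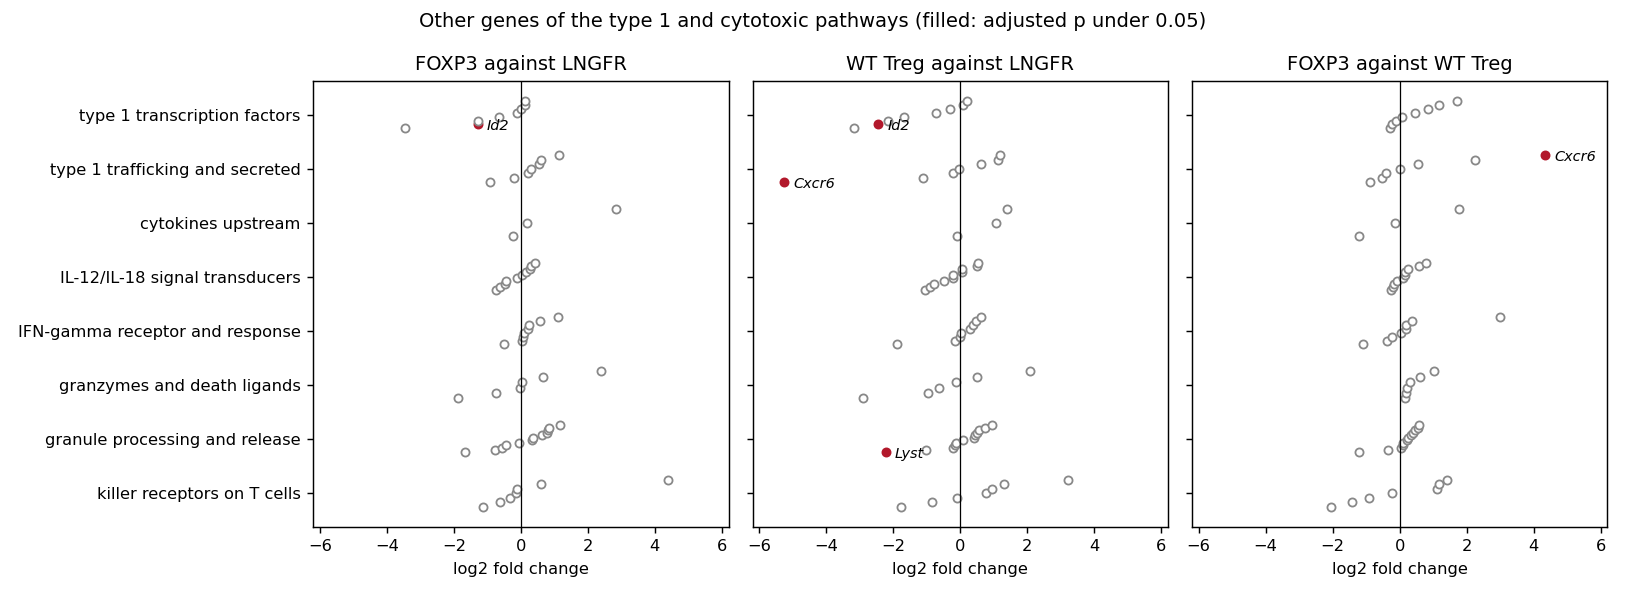
Log2 fold changes of the 61 tested genes of the 8 pathway lists, 1 point per gene, in the 3 comparisons. Filled points passed an adjusted p of 0.05: Id2 in both comparisons with LNGFR, Cxcr6 in both comparisons with WT Treg, and Lyst in WT Treg against LNGFR.

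Among 8 tested transcription factors of type 1 cells, Id2 alone passed by edgeR, lower in both comparisons with LNGFR. By edgeR, 3 of the 8 had an unadjusted p under 0.05 in each comparison with LNGFR and 1 in FOXP3 against WT Treg. Over all 15462 genes tested, 1595, 2290 and 2547 reached that p in FOXP3 against LNGFR, WT Treg against LNGFR and FOXP3 against WT Treg. Bhlhe40 had log2 fold changes against LNGFR of -1.29 in FOXP3 and -2.15 in WT Treg (edgeR adjusted p 0.413 and 0.156). DESeq2 called it lower in WT Treg. Id2, an inhibitor of E proteins that effector T cells express, was at 753, 411 and 564 CPM in LNGFR codes, 217 to 243 CPM in FOXP3 codes and 94.8, 111 and 110 CPM in WT Treg codes. The 3 groups did not overlap in Id2. Its log2 fold change was -1.29 ± 0.26 for FOXP3 (SE; edgeR adjusted p 0.0442) and -2.45 ± 0.31 for WT Treg (adjusted p 0.00136). The first call was lost in 9 of the 11 fits that leave out 1 code, the exceptions being N3 and E2, with adjusted p up to 0.299 (without G2), and with no filter on low counts (0.50). The second was lost with only the 2 groups fitted (0.0682). In FOXP3 against WT Treg, Id2 was not called by edgeR (log2 fold change 1.16) and was called higher by DESeq2 (adjusted p 0.000321) and limma-voom (0.000524). Eomes, a T-box factor of memory and cytotoxic cells, was at 11.1, 2.88 and 6.95 CPM in LNGFR codes, 0.208 to 0.871 in FOXP3 codes and 2.63, 0.323 and 0.533 in WT Treg codes. These levels rest on 109 counts in LNGFR, 29 in FOXP3 and 8 in WT Treg, and the value of E2 lies below its floor of 3.95 CPM. The log2 fold change of Eomes in FOXP3 against LNGFR, -3.46 ± 0.71, just missed the threshold by edgeR (adjusted p 0.0533). It passed with DESeq2 (0.00121) and limma-voom (0.00285). In WT Treg against LNGFR Eomes was also lower, by -3.16 ± 0.96. That difference did not pass by edgeR (adjusted p 0.163) and passed with DESeq2 (0.0248) and limma-voom (0.0230). Tbx21, which encodes T-bet, the master regulator of T helper 1 cells, was at 7.06, 31.7 and 64.4 CPM in LNGFR codes, 10.1 to 31.4 in FOXP3 codes and 5.26, 28.5 and 24.6 in WT Treg codes. Its groups overlapped, with log2 fold changes against LNGFR of -0.65 ± 0.58 in FOXP3 and -0.72 ± 0.68 in WT Treg (adjusted p 0.732 and 0.645), both of which turned positive without G3.

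Cxcr6, a chemokine receptor of tissue-homing effector T cells, was at 662, 948 and 1416 CPM in LNGFR codes, 378 to 707 in FOXP3 codes and 21.1, 21.0 and 36.2 in WT Treg codes E2, G4 and L1. By edgeR it was the only one of 7 tested trafficking and secreted genes to pass: it fell in WT Treg against LNGFR (-5.25 ± 0.47, SE, edgeR adjusted p 0.000198) and rose in FOXP3 against WT Treg (4.34 ± 0.44, adjusted p 0.000802). Both calls held in all 11 fits that leave out 1 code. Cxcr3, the chemokine receptor that T-bet induces, was at 132 ± 53.3 CPM in FOXP3, 152 ± 65.6 in LNGFR and 129 ± 87.6 in WT Treg (SD over codes), with no call. Lyst, a regulator of granule size, was at 86.4, 125 and 139 CPM in LNGFR codes, 23.6 to 77.2 in FOXP3 codes and 35.5, 18.3 and 24.4 in WT Treg codes. By edgeR it was the only one of 12 tested genes of granule processing and release to pass, and fell in WT Treg against LNGFR (-2.22 ± 0.47, adjusted p 0.0374). That call was lost in 8 of the 11 fits that leave out 1 code, with adjusted p up to 0.175 (without G2), and with only these 2 groups (0.0800). In FOXP3 against LNGFR it was not past the threshold by edgeR (-1.66 ± 0.38, adjusted p 0.0829) and was called lower by DESeq2 (0.00605) and limma-voom (4.84e-05). In the same list limma-voom also called Rab27a and Stx11 higher in FOXP3 and Stx11 higher in WT Treg, each relative to LNGFR, and Lamp1 lower in FOXP3 relative to WT Treg. Among 6 tested granzymes and death ligands 0 passed by edgeR in any comparison. Of them, 3, 2 and 0 had an unadjusted p under 0.05 in FOXP3 against LNGFR, WT Treg against LNGFR and FOXP3 against WT Treg. Of all 15462 genes tested, 1595, 2290 and 2547 did, in the same order. DESeq2 called Gzma lower and limma-voom Fasl lower in WT Treg against LNGFR, and limma-voom also Fasl in FOXP3 against LNGFR. With edgeR and no filter on low counts, Gzma passed as lower than LNGFR in FOXP3 (adjusted p 0.0155) and in WT Treg (8.95e-06). Gzma, granzyme A, was at 229, 56.2 and 134 CPM in LNGFR codes, 14.8 to 85.6 in FOXP3 codes and 1.32, 37.8 and 11.2 in WT Treg codes, and Fasl, the Fas ligand, at 13.1, 26.9 and 23.5, 10.9 to 13.9, and 15.8, 8.09 and 10.7 CPM. Ifngr1, a chain of the interferon-gamma receptor, was at 430 ± 93.4 CPM in FOXP3, 406 ± 239 in LNGFR and 562 ± 274 in WT Treg. In its list 0 of 8 genes passed by edgeR in any comparison, with 0, 0 and 2 at an unadjusted p under 0.05, and Socs1 was called lower in FOXP3 against WT Treg by both other tools. For the upstream cytokines (3 tested), signal transducers (10) and killer receptors (7) edgeR called 0 in every comparison, with 3, 2 and 2 genes together at an unadjusted p under 0.05. Of these, Jak2 was called lower in WT Treg against LNGFR by DESeq2 and limma-voom and in FOXP3 against LNGFR by limma-voom.

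Across the 11 codes, on the log2(CPM + 1) scale, Ifng varied most closely with Nkg7 among the members (Pearson r 0.88), Il12rb1 with Stat4 (0.83) and Gzmb with Prf1 (0.83). The 2 receptor chains of IL-18 gave 0.54, and Ifng gave 0.45 with Gzmb and 0.31 with Stat4. These are descriptions over codes that share libraries, depth and groups. Among 9415 genes whose mean reached 10 CPM in any group, the 5 with the pattern most like that of Ifng were Commd8 (0.95), Hcst (0.93), Med27 (0.92), Sptssa (0.92) and Clybl (0.91). Hcst, which encodes the killer receptor adaptor DAP10, was at 191 ± 27.8 CPM in FOXP3, 356 ± 209 in LNGFR and 90.9 ± 27.1 in WT Treg (SD over codes). Among those most like Gzmb were Rtca (0.96), Nap1l1 (0.95), Amdhd2 (0.95) and Sec11c (0.94). Code E2 is the lowest for Gzmb, and without it the last 4 gave 0.84 to 0.90 and those of Ifng 0.86 to 0.92. The correlations among members were not computed without E2, which was also the lowest code for Ifng, Nkg7, Il12rb1, Stat4 and Prf1.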

How the data were processed

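Smart-seq RNA libraries of 22 samples of sorted mouse CD4+ T cells were analysed from the deposited table of raw read counts per gene symbol. The submitters' processing notes name the aligner STAR 2.7.3a, the counter featureCounts, Subread 2.0.0 and the build mm10 (GRCm38). For the annotation, the strand setting and multi-mapped reads, nothing is given in the sources used here. Per the labels' protocols, polyadenylated RNA was amplified with 18 cycles of PCR and read as pairs of 38 bp, without molecular identifiers. The exact intervals of the Gzmk ratios and the floors cover counting error only. Intervals of log2 fold changes also include the variation among codes.

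Groups came from the titles, and the 2 libraries of a code were summed as 1 replicate (11 codes). The main test was edgeR 4.0.16 in R 4.3.3 (quasi-likelihood, robust, TMM, filterByExpr, 3 groups in 1 fit) with Benjamini-Hochberg adjustment over 15462 genes and a threshold of 0.05, tested on simulated data first. CPM are TMM-scaled unless given for a single library. The SE is the absolute log2 fold change divided by the square root of F, and its intervals are approximate. A count of 0 was given a floor of 3 counts per code. Alternatives were DESeq2 1.42.0, limma 3.58.1 (voom with quality weights), other scalings and filters, only 2 groups, and leaving out codes or libraries. Exact permutation tests, planned for members below the filter, were not needed.

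The members and lists were chosen with earlier results of these data known. The text names all 10 members. From 8 pathway lists it gives values for genes called in any comparison (at most 4 per list and comparison) and always for Tbx21, Eomes, Cxcr3, Gzma, Ifngr1 and Fasl. It also names the 5 genes most like Ifng and like Gzmb by Pearson r of log2(CPM + 1), without gene models and receptor segments. A gene among those 10 is not reported here. Hcst values, Jak2, Socs1, Bhlhe40, Rab27a, Stx11, Lamp1, Mzb1, Ms4a1 and Cd8b1 were chosen after their values were seen. So were Ncr1, Klrb1f, Tyrobp, Fcer1g, Lyz2, Csf1r and Adgre1. Positions, lengths and overlaps are from GENCODE M21 on GRCm38, promoters from RefSeq on GRCm38.p6.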

Additional observations from a re-analysis of the deposited data

Results flagged for a closer look

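Within the 5 FOXP3 codes, 2 of 19 genes examined had a code that stood apart from the other 4 by Dixon's criterion, which chance meets in about 1 in 20 groups. Prf1 was at 25.7 CPM in N3 against 12.6 to 15.8 CPM in the other codes. Lyst was at 77.2 CPM in N3 against 23.6 to 30.3 CPM. In N3 the B cell list also summed to 5144 CPM, against 138 to 584 CPM in the remaining 4, and the part of these values in the Prf1 and Lyst levels was not tested. Without N3 the log2 fold change of Lyst for FOXP3 against LNGFR was -2.13 (edgeR adjusted p 0.00296), in place of -1.66 (0.0829).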

How the results depend on the processing

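Counts of called members depended on the setting. For FOXP3 against LNGFR the count was 0 except for 1 without codes E2, G1 and N3 (Stat4). For WT Treg against LNGFR it was 2, but 0 with only the 2 groups fitted, 1 without the 3 weak libraries (Ifng), and 0 to 2 when 1 code was left out. For FOXP3 against WT Treg it was 0, but 3 with DESeq2, 3 with limma-voom, 3 without a filter, 1 with only 2 groups, 1 without codes E2, G1 and N3 (Nkg7), and 0 to 2 when 1 code was left out. Counts over all genes moved too: 84, 201 and 40 calls became 1 to 161 higher and 12 to 152 lower, 10 to 147 and 27 to 157, and 3 to 67 and 1 to 1168 with 1 code left out. Over the other settings they ran from 16 to 971 and 52 to 594, 18 to 716 and 40 to 510, and 23 to 565 and 20 to 3211. Upper-quartile scaling shifted the median of all genes by -0.23, -0.08 and -0.12. The cause was not tested. The log2 fold changes that changed sign are given next, none of them past the threshold in either setting. WT Treg against LNGFR: Il12rb2 (-0.018) was 0.080 with RLE, 0.14 with upper-quartile scaling, 0.093 with DESeq2, 0.13 with only 2 groups and 0.019 without the Gm10800 family (-1.35 to 0.54 with 1 code left out). Il12rb1 was 0.12 without the weak libraries (-0.67 to 0.26 with 1 code left out). Gzmb was 0.29 with limma-voom and 0.21 without E2, G1 and N3, and Cxcr3 0.22 and 0.57 (-0.82 to 0.20 with 1 code left out). With 1 code left out, Tbx21 ran from -1.18 to 0.10 and Ifngr1 from -0.10 to 0.84. FOXP3 against LNGFR: without E2, G1 and N3, Il12rb1 was -0.061, Gzmk 0.85, Nkg7 0.32, Cxcr3 0.43 and Ifngr1 -0.21. With limma-voom Gzmk was 1.62, Nkg7 0.27, Cxcr3 0.26 and Ifngr1 -0.17. Ifngr1 was -0.034 with upper-quartile scaling and Cxcr3 0.048 without a filter. With 1 code left out the ranges were -0.17 to 0.72 for Il12rb1, -0.57 to 0.0029 for Stat4, -0.048 to 0.63 for Il18rap, -1.61 to 0.77 for Gzmk, -0.62 to 0.28 for Nkg7, -0.35 to 0.21 for Cxcr3, -0.33 to 0.53 for Ifngr1 and -1.11 to 0.22 for Tbx21. FOXP3 against WT Treg: Il18r1 (-0.043) was 0.15 with limma-voom, 0.21 without a filter, 0.10 without the weak libraries and 0.25 without E2, G1 and N3 (-0.21 to 0.12 with 1 code left out). Stat4 was -0.0040 and Eomes 0.48 without the weak libraries. Eomes was 0.32 without E2, G1 and N3 (-0.67 to 0.48 with 1 code left out). Tbx21 was -0.00067 with upper-quartile scaling, -0.13 with limma-voom, -0.025 with at least 10 CPM in 3 codes, -0.26 without the weak libraries and -0.10 without E2, G1 and N3 (-0.25 to 0.51 with 1 code left out). Cxcr3 was -0.0097 with RLE, -0.071 with upper-quartile scaling, -0.10 with at least 10 CPM in 3 codes, -0.019 with only 2 groups, -0.36 without the weak libraries and -0.14 without E2, G1 and N3 (-0.36 to 0.78 with 1 code left out). With 1 code left out Il12rb2 ran from -0.13 to 1.69 and Ifngr1 from -0.66 to 0.22. No paired analysis was possible because no 2 groups share a replicate label.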
